A study of Mus musculus with 4 samples.

Results

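The 10 genes described here belong to the Notch pathway: the receptor genes Notch1, Notch2 and Notch3, the nuclear complex genes Rbpj and Maml1, the target gene Hes1, the Deltex ligase genes Dtx1, Dtx3 and Dtx4, and the inhibitor gene Numb. They were taken by symbol from tables of 23284 genes, and all 10 were found. The genes were chosen by pathway with their eWAT and spleen levels known, and Dtx1 was chosen by its far lower level in fat than in spleen, so the tissue values of the 10 genes are a description and carry no test.

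RNA was sequenced from sorted Treg cells, regulatory T cells that depend on the factor FOXP3 and hold immune responses in check, of C57BL/6 mice aged 12 to 13 months. The 4 libraries were PPARg-2KR epididymal white adipose tissue (2KR eWAT, a visceral fat depot), wild type eWAT (WT eWAT), PPARg-2KR spleen (2KR spleen) and wild type spleen (WT spleen), with 1 library each. PPARg-2KR is a form of the nuclear receptor PPARG in which lysines are replaced by arginines. The labels name no other treatment or allele for any group. They do not say whether cells of several mice were pooled, how the cells were gated or which cells carry the change. The libraries held 8315569 (2KR eWAT), 11186660 (WT eWAT), 15993889 (2KR spleen) and 13250590 (WT spleen) counted reads. Levels below are CPM, the reads of a gene relative to the scaled size of its library, and 3 reads stood for 0.196 to 0.312 CPM. Pparg itself stood at 64.1 CPM in 2KR eWAT and 129 CPM in WT eWAT, against 2.88 CPM in 2KR spleen and 5.73 CPM in WT spleen; the change alters the protein, so these levels do not check the genotype labels.

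Notch signalling passes a signal between touching cells. A ligand of the Delta or Jagged type on the neighbouring cell leads to cleavage of the receptor by an ADAM protease and then by gamma-secretase, and the freed intracellular part enters the nucleus, where it joins the DNA-binding protein RBPJ and a Mastermind coactivator to switch on genes such as Hes1. Deltex proteins are ubiquitin ligases that act on Notch and on other proteins. Dtx1 is itself a Notch target in lymphocytes, and in mouse T cells it has also been described as a target of NFAT that promotes anergy and as a factor that helps Treg cells keep their FOXP3. Notch signals also specify marginal zone B cells and shape blood vessels and their mural cells, so several of these genes are strongly used outside T cells.

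The promoter of Dtx1, the gene with the lowest ratio, is shown beside those of Notch3, the receptor gene with the highest ratio, and of Rbpj. Each is 300 bases, from 250 before to 50 after a start site, from RefSeq on GRCm38.p6, a later build than the mm9 of the files. They lie at chr5:120711620-120711919 (Dtx1, minus strand), chr17:32166841-32167140 (Notch3, minus strand) and chr5:53590096-53590395 (Rbpj, plus strand, the first of its promoters in the table). Capitals mark the letters TGGGAA or their reverse complement TTCCCA, the core to which RBPJ binds.
Dtx1: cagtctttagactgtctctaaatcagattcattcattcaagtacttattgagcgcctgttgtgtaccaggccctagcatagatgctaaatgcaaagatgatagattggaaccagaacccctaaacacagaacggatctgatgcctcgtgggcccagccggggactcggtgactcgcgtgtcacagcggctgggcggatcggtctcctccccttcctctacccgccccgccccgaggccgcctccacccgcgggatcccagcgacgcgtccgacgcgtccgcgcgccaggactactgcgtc
Notch3: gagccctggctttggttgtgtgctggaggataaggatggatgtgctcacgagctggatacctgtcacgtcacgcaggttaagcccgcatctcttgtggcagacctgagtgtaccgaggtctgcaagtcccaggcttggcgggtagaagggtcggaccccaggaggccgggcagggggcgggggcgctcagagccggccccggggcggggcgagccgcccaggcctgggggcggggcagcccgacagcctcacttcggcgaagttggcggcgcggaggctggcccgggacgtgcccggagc
Rbpj: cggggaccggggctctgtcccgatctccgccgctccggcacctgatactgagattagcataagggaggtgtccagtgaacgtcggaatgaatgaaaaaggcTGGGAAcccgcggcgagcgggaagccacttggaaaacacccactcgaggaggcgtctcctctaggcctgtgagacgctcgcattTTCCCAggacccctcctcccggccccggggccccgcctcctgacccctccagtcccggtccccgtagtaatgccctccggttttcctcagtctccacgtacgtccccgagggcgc
The table matched 7 of the 10 genes with 10 promoters, and held none for Hes1, Dtx3 and Dtx4. On either strand the core letters were found in the Rbpj promoters alone among these, with 2 matches in the printed window and 1 in the other, which overlaps it and shares that match. Of 32851 promoters of the same length, 25.6% held the core, and 6.38% held the longer GTGGGAA or its reverse complement, which none of the 10 promoters held. A match is a description of letters and not a binding site, and a window without one says nothing of the factor.

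Dtx1 had 41 reads in 2KR eWAT and 36 in WT eWAT, against 3363 in 2KR spleen and 2687 in WT spleen. This was 4.27 and 3.32 CPM in 2KR and WT eWAT, against 220.2 and 216.7 CPM in 2KR and WT spleen. The eWAT libraries lay far below the spleen libraries, and within each tissue the genotypes lay close together. The ratio of eWAT over spleen was -5.79 on the log2 scale, 55.2-fold lower in eWAT (ratios here carry a prior count of 2, which draws those of few reads toward 0, while their intervals use the reads alone), and it was the lowest of 12307 genes that reached 5 CPM in at least 1 library. In 2KR mice it was -5.64 (95% exact interval of the reads -6.17 to -5.25) and in WT mice -5.96 (-6.54 to -5.55). These intervals cover counting error only, since reads without molecular identifiers are not independent molecules and no spread between animals is in them. In these bulk libraries, fewer cells with Dtx1 RNA and less Dtx1 RNA per cell cannot be told apart. The gene lies on chromosome 5 at 121130273 to 121161678 (mm9) and has 1 annotated transcript, which overlaps no other annotated gene.

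Dtx1 is also a gene of B cells, so B cell markers were read beside it. Their 10 genes summed to 195 CPM in 2KR eWAT and 108 CPM in WT eWAT, against 112 CPM in 2KR spleen and 126 CPM in WT spleen, and none was at 0 in any library. Cr2, a receptor of marginal zone B cells, stood at 11.1 and 3.88 CPM in 2KR and WT eWAT, against 2.82 and 3.55 CPM in 2KR and WT spleen. Ms4a1 stood at 44.1 and 19.4 CPM in 2KR and WT eWAT, against 10.9 and 13.1 CPM in 2KR and WT spleen. Pax5 stood at 1.56 and 1.48 CPM in 2KR and WT eWAT, against 0.196 and 0.484 CPM in 2KR and WT spleen. In 6 of the 10 genes both eWAT libraries lay above both spleen libraries, and in 2 below, beside 44.3% and 37.5% of all genes tested. The 2 that were lower, named after their values were seen, were Cd79b, at 42.1 and 31.3 CPM in 2KR and WT eWAT, against 48.7 and 58.3 CPM in 2KR and WT spleen, and Cd22, at 14.9 and 6.92 CPM in 2KR and WT eWAT, against 24.9 and 23.6 CPM in 2KR and WT spleen. The part of B cells in the Dtx1 values was not tested. Foxp3 stood at 803 and 1160 CPM in 2KR and WT eWAT, against 1297 and 1407 CPM in 2KR and WT spleen, so the labelled cell type had its defining gene in every library.

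**Figure D1:**
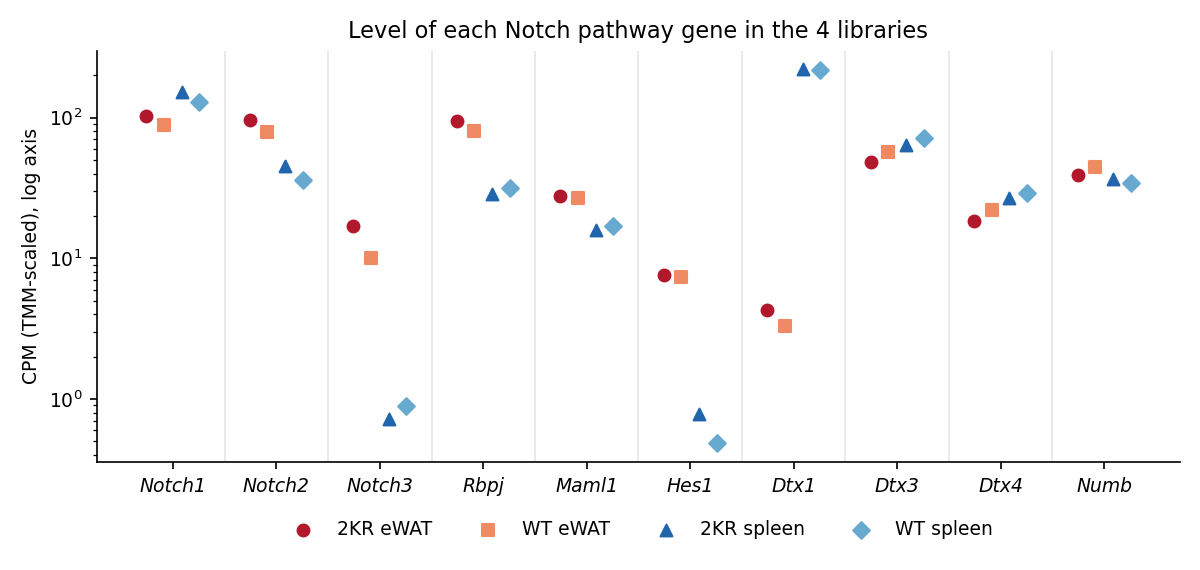
Level of the 10 genes in CPM on a log axis, 1 point per library, with 2KR eWAT, WT eWAT, 2KR spleen and WT spleen from left to right within each gene. Dtx1 stands at 4.27 and 3.32 CPM in eWAT and above 200 CPM in spleen, while Notch3 and Hes1 stand below 1 CPM in spleen.

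The other Deltex genes of the set differed little between tissues. Dtx3 stood at 48.7 CPM in 2KR eWAT and 57.2 CPM in WT eWAT, against 64.3 CPM in 2KR spleen and 71.2 CPM in WT spleen, a log2 ratio of eWAT over spleen of -0.35. It lies on chromosome 10 at 126627434 to 126632765 (mm9, as for the loci that follow) and shares 461 bases with the transcript gene F420014N23Rik, which had 10 and 7 reads in 2KR and WT eWAT, against 10 and 3 in 2KR and WT spleen. Dtx4 stood at 18.5 and 22.0 CPM in 2KR and WT eWAT, against 26.7 and 29.4 CPM in 2KR and WT spleen, a log2 ratio of -0.47, and lies on chromosome 19 at 12540826 to 12576486. Both had eWAT values below their spleen values, by margins far smaller than that of Dtx1. Per length, in the deposited FPKM (fragments scaled to transcript length and library depth), Dtx1 made up 1.99% and 1.46% of the summed level of Dtx1, Dtx2, Dtx3, Dtx3l and Dtx4 in 2KR and WT eWAT, against 42.0% and 41.5% in 2KR and WT spleen. The summed FPKM itself was 63.6 in 2KR eWAT and 61.1 in WT eWAT, against 137 in 2KR spleen and 134 in WT spleen. Dtx3 was the highest Deltex gene in eWAT, at 29.9 and 29.4 FPKM in 2KR and WT eWAT, against 31.2 and 34.7 FPKM in 2KR and WT spleen.

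Among the receptors, Notch1 and Notch2 ran in opposite directions. Notch1, the main receptor of T lineage commitment, stood at 103 CPM in 2KR eWAT and 89.3 CPM in WT eWAT, against 153 CPM in 2KR spleen and 129 CPM in WT spleen, a log2 ratio of -0.55. Notch2 stood at 96.1 CPM in 2KR eWAT and 79.1 CPM in WT eWAT, against 45.6 CPM in 2KR spleen and 36.3 CPM in WT spleen, a log2 ratio of 1.09. Notch1 lies on chromosome 2 at 26313422 to 26359342 and Notch2 on chromosome 3 at 97817461 to 97954290. Neither gene overlapped between tissues, as with 81.8% of all genes tested, and each kept the order 2KR above WT within both tissues. Per length, Notch1 held 49.0% and 52.4% of the summed FPKM of the 4 receptor genes in 2KR and WT eWAT, against 78.3% and 80.3% in 2KR and WT spleen. Notch2 held 40.6% and 39.99% in 2KR and WT eWAT, against 20.5% and 19.1% in 2KR and WT spleen. The level of Notch1 was thus 1.21 and 1.31 times that of Notch2 in 2KR and WT eWAT, against 3.82 and 4.205 times in 2KR and WT spleen.

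Notch3, a receptor best known from vascular mural cells, had 163 reads in 2KR eWAT and 109 in WT eWAT, against 11 in 2KR spleen and 11 in WT spleen. These were 16.96 and 10.1 CPM in 2KR and WT eWAT, against 0.720 and 0.887 CPM in 2KR and WT spleen, 14.1-fold higher in eWAT (log2 ratio 3.82, and 3.11 in FPKM). The FPKM ratio adds 0.1 to each value, which draws it toward 0. That is more than the spleen levels themselves, 0.0779 and 0.0564 FPKM in 2KR and WT spleen. The gene lies on chromosome 17 at 32257838 to 32303797. Even so it held 7.65% and 4.999% of the summed receptor FPKM in 2KR and WT eWAT, against 0.400% and 0.361% in 2KR and WT spleen. Markers of pericytes and smooth muscle moved with it. Their 5 genes summed to 133 CPM in 2KR eWAT and 51.6 CPM in WT eWAT, against 1.70 CPM in 2KR spleen and 3.15 CPM in WT spleen, all 5 were higher in both eWAT libraries, and Rgs5 was at 0 in 2KR spleen. Of all genes tested, 44.3% were higher in both eWAT libraries. Rgs5 stood at 20.8 and 11.1 CPM in 2KR and WT eWAT and at 0.403 CPM in WT spleen. The part of such cells in the Notch3 values was not tested.

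**Figure D2:**
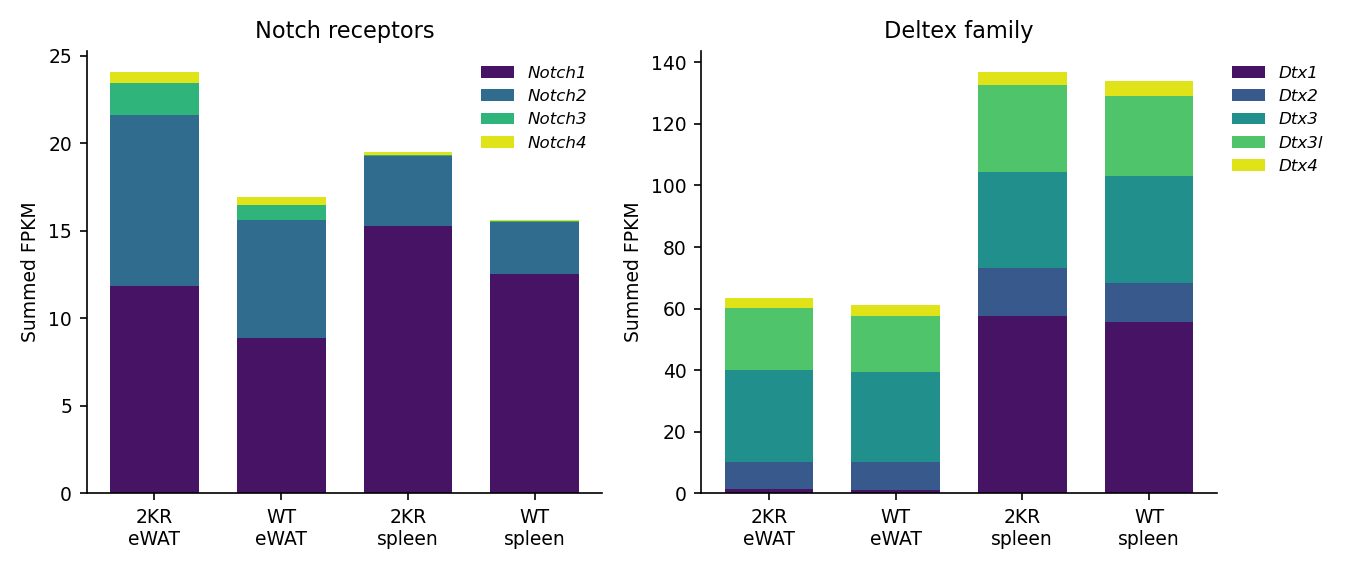
Deposited FPKM of the 4 Notch receptor genes (left) and of 5 Deltex family genes (right), stacked per library from 2KR eWAT on the left to WT spleen on the right. Notch2 takes 40.6% and 39.99% of the receptor sum in 2KR and WT eWAT, against 20.5% and 19.1% in 2KR and WT spleen, and Dtx1 is nearly absent from the eWAT bars.

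The nuclear complex genes stood higher in eWAT. Rbpj, the DNA-binding partner of Notch, stood at 94.2 CPM in 2KR eWAT and 80.3 CPM in WT eWAT, against 28.6 CPM in 2KR spleen and 31.6 CPM in WT spleen, a log2 ratio of 1.53 or 2.89-fold. Maml1, a Mastermind coactivator, stood at 27.9 and 27.0 CPM in 2KR and WT eWAT, against 16.0 and 16.9 CPM in 2KR and WT spleen, a log2 ratio of 0.73. Rbpj lies on chromosome 5 at 53947018 to 54048684 and Maml1 on chromosome 11 at 50069137 to 50105838. For both genes the eWAT libraries lay above the spleen libraries in each genotype. Counted reads of Rbpj were 60.4 to 61.1% of those that its FPKM and transcript lengths stand for, against 92.0 to 185% for the other 9 genes. RefSeq lists pseudogenes of Rbpj, so its reads may be shared with copies, which was not tested. The percentage was nearly the same in every library.

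Transcript estimates placed the Rbpj level on several forms. The transcript of 5420 bases stood at 19.6 and 14.6 FPKM in 2KR and WT eWAT, against 7.68 and 6.78 FPKM in 2KR and WT spleen. That of 5541 bases stood at 13.2 and 6.55 FPKM in 2KR and WT eWAT, against 0.657 and 2.11 FPKM in 2KR and WT spleen, and its share of the gene was 40.2% and 28.0% in 2KR and WT eWAT, against 7.88% and 23.8% in 2KR and WT spleen. The transcript of 5394 bases had 2.22 FPKM in WT eWAT and was close to 0 in the other 3 libraries. The first transcript carried most of the level in every library, and the other shares varied between genotypes as well as tissues. For Numb, the transcript of 1815 bases carried 91.0 to 95.02% of the gene in the 4 libraries.

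Hes1, a repressor and the best known direct Notch target, had 73 reads in 2KR eWAT and 80 in WT eWAT, against 12 in 2KR spleen and 6 in WT spleen. The levels were 7.60 and 7.38 CPM in 2KR and WT eWAT, against 0.786 and 0.484 CPM in 2KR and WT spleen, 9.56-fold higher in eWAT. The gene is short and lies on chromosome 16 at 30065443 to 30067882. Dtx1 and Hes1, both known targets of Notch in lymphocytes, thus lay on opposite sides. Several cell types other than T cells express Hes1, and their markers were higher in eWAT, as given below; the part of those cells was not tested. Numb, an endocytic adaptor that restrains Notch, stood at 39.2 CPM in 2KR eWAT and 44.6 CPM in WT eWAT, against 36.7 CPM in 2KR spleen and 34.5 CPM in WT spleen. Its log2 ratio was 0.23, the smallest in size of the 10 genes, and the interval within 2KR mice included 0 (-0.10 to 0.29). It lies on chromosome 12 at 85136389 to 85183293.

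Across the 10 genes, 6 had both eWAT libraries above both spleen libraries and 4 had both below. Of the 16488 genes tested, 44.3% lay above and 37.5% below in this way, 81.8% in all, so 10 genes with no overlap are close to what most genes show, and nothing is read from the count. From this lack of overlap it follows that the ratio of eWAT over spleen had the same sign in both genotypes for all 10 genes, which adds nothing further. The tissue ratio in 2KR mice minus that in WT mice was 0.99 for Notch3, -0.51 for Hes1 and between -0.27 and 0.37 for the other 8 genes, each a difference with no test, since each ratio rests on 1 library a side.

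Per length, the order of the genes changed between tissues. In 2KR and WT spleen Dtx1 was highest, at 57.6 and 55.6 FPKM, which put it above 90.8% and 90.4% of all genes. In 2KR and WT eWAT it stood at 1.26 and 0.895 FPKM, above 42.6% and 45.6% of all genes, and with Notch3 it made up the lowest pair, whose Cufflinks bounds overlapped. Rbpj and Dtx3 led in 2KR eWAT, at 32.7 and 29.9 FPKM with overlapping bounds, whereas in WT eWAT Dtx3 led at 29.4 FPKM with bounds clear of Rbpj at 23.4 FPKM. The place of Rbpj holds for FPKM only. Its counted reads were 60.4 to 61.1% of those its FPKM stands for, against 92.0% or more for every other gene of the set. By counted reads per length, Rbpj lay below Dtx3 and Numb in both eWAT libraries. Hes1 and Maml1 had overlapping bounds in both eWAT libraries, at 6.58 and 5.82 FPKM in 2KR eWAT and 5.14 and 4.58 FPKM in WT eWAT. In spleen Notch3 and Hes1 closed the order, at 0.0779 and 0.487 FPKM in 2KR spleen and 0.0564 and 0.235 FPKM in WT spleen.

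The genes whose profile over the 4 libraries was nearest to that of Dtx1 were Slc7a10, Serpina9, Capn3, Gpr83 and Gata1, in that order. The measure was the Euclidean distance between log2 CPM centred per gene, which ran from 0.987 for Slc7a10 to 1.83 for Gata1 among 12306 genes. Slc7a10, a neutral amino acid transporter, stood at 1.77 and 0.646 CPM in 2KR and WT eWAT, against 38.0 and 66.7 CPM in 2KR and WT spleen. Gpr83, a G protein-coupled receptor known from Treg cells, stood at 27.3 and 12.0 CPM in 2KR and WT eWAT, against 329 and 336 CPM in 2KR and WT spleen. Capn3, a calpain protease, stood at 7.39 and 4.25 CPM in 2KR and WT eWAT, against 97.6 and 113 CPM in 2KR and WT spleen. Of the other 9 Notch genes Notch1 was nearest, at a distance of 5.25.

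A further 74 genes of the pathway, listed by role, were compared between tissues by edgeR's quasi-likelihood test, both eWAT libraries against both spleen libraries. Of 71 that passed the filter on low counts, 16 rose in eWAT, 21 fell and 34 did not pass an adjusted p of 0.05. Over all 16488 genes tested, 33.7% rose and 23.2% fell (56.9% in either direction), beside 22.5% and 29.6% of this list. These shares describe the list and test nothing. The same holds for the counts by role below, which are of few genes each. The median log2 fold change was -0.21 over the list and 0.11 over all genes. Each tissue held 1 library of each genotype, so these p-values rest on the spread between 4 libraries, in which genotype and technical differences are mixed. Without 2KR spleen 12 of the list fell, and without WT spleen 13.

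Of 4 ligand genes tested, whose products neighbouring cells present, 2 rose and 2 did not pass. Jag1 rose in eWAT, with 17.5 and 26.4 CPM in 2KR and WT eWAT, against 1.77 and 1.45 CPM in 2KR and WT spleen (edgeR log2 fold change 3.75, SE 0.40, adjusted p = 7.33e-06). Dll4, an endothelial ligand, had 44 and 31 reads in 2KR and WT eWAT and 0 in both spleen libraries, at least 33.8-fold higher in eWAT against a floor of 3 reads over both spleen libraries (adjusted p = 0.000288). Dll1 stood at 4.99 and 5.26 CPM in 2KR and WT eWAT, against 3.54 and 3.15 CPM in 2KR and WT spleen, and did not pass (adjusted p = 0.324). Notch4, the endothelial receptor, rose by 2.07 (SE 0.72, adjusted p = 0.0241) on few reads, 44 and 40 in 2KR and WT eWAT, against 23 and 5 in 2KR and WT spleen. Without WT spleen its log2 fold change was 1.45 (adjusted p = 0.145), without 2KR eWAT it was 1.82 (adjusted p = 0.0831) and without 2KR spleen it was 3.32 (adjusted p = 0.00506).

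Endothelial markers were read beside Jag1, Dll4 and Notch4. Of 6 markers, all but Pecam1 were higher in both eWAT libraries, as were 44.3% of all genes tested. Cdh5 stood at 14.7 and 10.9 CPM in 2KR and WT eWAT, against 0.458 and 0.161 CPM in 2KR and WT spleen. Pecam1, which T cells also express, ran the other way, at 112 and 63.4 CPM in 2KR and WT eWAT, against 190.5 and 172 CPM in 2KR and WT spleen. Their sums, 187 and 114 CPM in 2KR and WT eWAT, against 193 and 174 CPM in 2KR and WT spleen, rest mainly on Pecam1. Between the eWAT libraries, Jag1 was higher in WT, while Dll4 and Notch4 were higher in 2KR, Notch4 on 44 and 40 reads in 2KR and WT. Emcn, a marker named after its values were seen, was slightly higher in WT, at 13.3 and 13.8 CPM in 2KR and WT eWAT. The other markers were higher in 2KR. Each of these differences is between 1 library and 1 library and has no test. The part of endothelial cells in Jag1, Dll4 and Notch4 was not tested.

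Of 10 genes of receptor and ligand maturation, 3 were higher and 3 lower, beside 33.7% and 23.2% of all genes tested. The fringe genes Lfng and Mfng encode glycosyltransferases that tune which ligands Notch responds to. Mfng had 44.3 and 51.7 CPM in 2KR and WT eWAT, against 129 and 138 CPM in 2KR and WT spleen (log2 fold change -1.48, SE 0.19, edgeR adjusted p = 4.62e-05). Lfng had 138 and 228 CPM in 2KR and WT eWAT, against 331 and 344 CPM in 2KR and WT spleen (log2 fold change -0.88, adjusted p = 0.00808). Pofut1, the fucosyltransferase whose sugar the fringes extend, fell by 0.81 (adjusted p = 0.00398). Furin, the protease that matures Notch, rose by 0.87 (adjusted p = 0.0142), with 71.8 and 149 CPM in 2KR and WT eWAT, against 63.7 and 57.1 CPM in 2KR and WT spleen. Notch4, described above, belongs to the same list. Without WT spleen Lfng had an adjusted p of 0.0544, and without WT eWAT Furin had 0.376 at a log2 fold change of 0.20.

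Of 8 genes of the proteases that cleave the receptor, 7 did not pass, among them the ADAM and presenilin genes, and Aph1b, a gamma-secretase subunit, rose by 1.68 (SE 0.44, edgeR adjusted p = 0.00576), which without 2KR spleen had an adjusted p of 0.0582. Of 8 other genes of the nuclear complex and coactivators, 2 were higher and 2 lower. Kat2a, a histone acetyltransferase, fell by 1.502 (adjusted p = 7.72e-05) and Snw1, the SKIP cofactor, by 0.84 (adjusted p = 0.0031), while Maml3 rose by 1.46 (adjusted p = 0.0229). The other gene to rise was Rbpjl, named after its values were seen. It had 17 and 18 reads in 2KR and WT eWAT, against 0 in both spleen libraries. Without WT spleen Snw1 had an adjusted p of 0.0511, and Maml3 had 0.18 without 2KR spleen and 0.189 without 2KR eWAT, there at a log2 fold change of 0.86. Of 11 corepressor genes 5 fell and 1 rose. The deacetylase gene Hdac2 fell by 0.92 (adjusted p = 0.00176) and Hdac1 by 0.79 (adjusted p = 0.00392), and Tle3, a Groucho family corepressor, fell by 0.66 (adjusted p = 0.0216). Ctbp2 rose, at 13.3 and 22.0 CPM in 2KR and WT eWAT, against 1.83 and 0.968 CPM in 2KR and WT spleen (log2 fold change 3.63, adjusted p = 4.22e-05). Hdac1 had an adjusted p of 0.0539 without 2KR spleen, and Tle3 had 0.0937 without WT spleen, 0.0705 without 2KR spleen and 0.0585 without 2KR eWAT.

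Regulators of turnover and endocytosis gave 3 higher and 4 lower of 10. Nedd4, a ubiquitin ligase that acts on Notch, rose by 2.79 (SE 0.30, edgeR adjusted p = 9.65e-06), with 92.8 and 109 CPM in 2KR and WT eWAT, against 8.91 and 20.4 CPM in 2KR and WT spleen. Its log2 fold change was 3.50 without WT spleen and 2.31 without 2KR spleen. Ccnc, the cyclin that helps turn over the Notch intracellular part, rose by 0.77 (adjusted p = 0.00656). The Deltex genes Dtx2 and Dtx3l fell, by 0.79 (adjusted p = 0.00923) and by 0.68 (adjusted p = 0.00722), with Parp9, the partner of DTX3L, by 0.70 (adjusted p = 0.00824). Leaving out 1 spleen library ended several of these calls. Without WT spleen the adjusted p was 0.123 for Ccnc, 0.0993 for Parp9 and 0.0575 for Dtx3l, and without 2KR spleen it was 0.162 for Dtx2 and 0.0927 for Dtx3l.

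**Figure D3:**
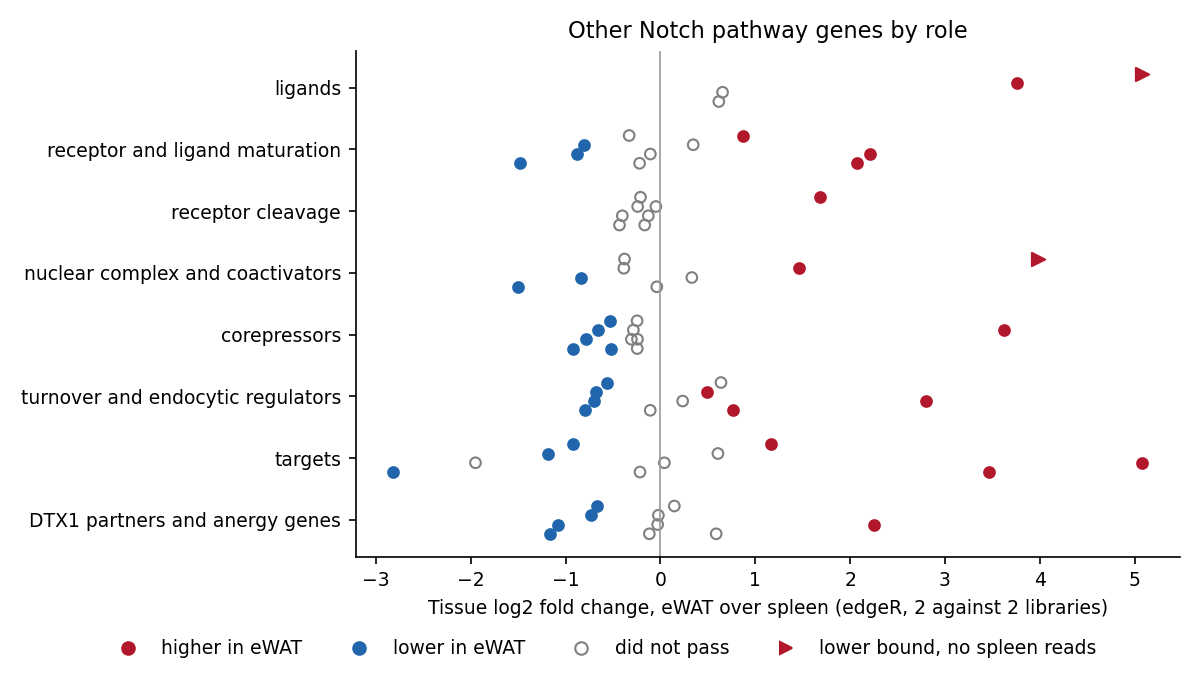
Tissue log2 fold change, eWAT over spleen, of 71 pathway genes outside the set of 10, by role, 1 point per gene. Red points rose in eWAT (16), blue fell (21) and open points did not pass, and a triangle marks a gene with 0 spleen reads drawn at its lower bound, such as Dll4 at 33.8-fold.

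Of 10 genes known as Notch targets that were tested, 3 were higher and 3 lower, beside 33.7% and 23.2% of all genes tested. Tcf7, a factor of resting T cells, fell by 2.82 (SE 0.25, edgeR adjusted p = 1.34e-06), with 116 and 87.2 CPM in 2KR and WT eWAT, against 736 and 700.2 CPM in 2KR and WT spleen. Igf1r, the IGF-1 receptor gene, fell by 1.18 (adjusted p = 0.000908). Gata3, the type 2 immunity factor, rose by 1.16 (adjusted p = 0.00761), and without WT eWAT its adjusted p was 0.0678 at 0.35. Ccnd1, cyclin D1, rose by 3.46 (adjusted p = 0.000251), with 20.5 and 7.66 CPM in 2KR and WT eWAT, against 1.24 and 1.29 CPM in 2KR and WT spleen, and its log2 fold change was 2.51 without 2KR eWAT. Nrarp, Hey1, Heyl and Hes5, classical targets, are named after their values were seen. Nrarp, a feedback inhibitor, stood at 9.26 and 7.38 CPM in 2KR and WT eWAT, against 7.47 and 8.71 CPM in 2KR and WT spleen, and Hey1 at 8.74 and 4.25 CPM in 2KR and WT eWAT, against 3.99 and 4.52 CPM in 2KR and WT spleen (adjusted p = 0.935 and 0.327). Heyl had 37 and 46 reads in 2KR and WT eWAT, against 1 and 2 in 2KR and WT spleen, and Hes5 had 3 and 3 reads in 2KR and WT eWAT, against 16 and 16 in 2KR and WT spleen. Heyl passed (adjusted p = 0.000485) and Hes5 did not (adjusted p = 0.0547).

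Partners of DTX1 and anergy genes gave 1 higher and 4 lower of 10. Egr2, a transcription factor of anergy, fell by 1.16 (SE 0.19, edgeR adjusted p = 0.000368), with 43.8 and 35.5 CPM in 2KR and WT eWAT, against 87.5 and 90.3 CPM in 2KR and WT spleen. Rnf128, the anergy ligase GRAIL, rose by 2.25 (SE 0.27, adjusted p = 2.55e-05), with 55.7 and 98.1 CPM in 2KR and WT eWAT, against 13.6 and 18.8 CPM in 2KR and WT spleen. Prkcq, the kinase of the T cell synapse, fell by 1.08 (adjusted p = 0.00164) and Plcg1, the phospholipase of T cell receptor signalling, by 0.74 (adjusted p = 0.0092). Without 2KR spleen the adjusted p was 0.0661 for Prkcq and 0.249 for Plcg1. Hif1a, whose protein DTX1 has been described to target in mouse Treg cells and which is named after its values were seen, stood at 608 and 850.1 CPM in 2KR and WT eWAT, against 662 and 656 CPM in 2KR and WT spleen, and did not pass (adjusted p = 0.637).

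Marker lists of other cell types were also read in each library. Of all genes tested, 44.3% were higher in both eWAT libraries and 37.5% were lower in both. Macrophage markers summed to 1618 and 1265 CPM in 2KR and WT eWAT, against 67.2 and 81.0 CPM in 2KR and WT spleen, with 6 of 6 higher in both eWAT libraries. Dendritic cell markers summed to 554 and 360 CPM in 2KR and WT eWAT, against 8.91 and 14.3 CPM in 2KR and WT spleen, also with 6 of 6 higher, and Clec10a was at 0 in 2KR spleen. Fibroblast and mesothelial markers summed to 199 and 467 CPM in 2KR and WT eWAT, against 2.49 and 5.08 CPM in 2KR and WT spleen, with 7 of 7 higher and Lum at 0 in both spleen libraries. Mast cell markers summed to 60.7 and 5.17 CPM in 2KR and WT eWAT, against 2.36 and 2.02 CPM in 2KR and WT spleen, with Mcpt4 and Tpsb2 at 0 in both spleen libraries, Cma1 at 0 in 2KR spleen and Mcpt4 at 0 in WT eWAT. Adipocyte markers summed to 38.3 and 26.03 CPM in 2KR and WT eWAT, against 29.7 and 36.1 CPM in 2KR and WT spleen, with 3 of 5 higher in both eWAT libraries, Adipoq at 0 in WT eWAT and Cfd at 0 in both spleen libraries. Most of the spleen sum was Lipe, a lipase gene named after its values were seen, at 22.3 and 15.2 CPM in 2KR and WT eWAT, against 28.5 and 33.8 CPM in 2KR and WT spleen. CD8 T and NK cell markers summed to 27.9 and 37.5 CPM in 2KR and WT eWAT, against 39.7 and 37.7 CPM in 2KR and WT spleen. Of these 4 genes, 2 were higher in both eWAT libraries and 1 was lower. Most of each sum was Cd8b1, the lower one. Cd8a, named like Cd8b1 after its values were seen, stood at 2.50 and 3.51 CPM in 2KR and WT eWAT, against 0.393 and 0.645 CPM in 2KR and WT spleen. Treg and T cell markers summed to 5107 and 6651 CPM in 2KR and WT eWAT, against 6225 and 6835 CPM in 2KR and WT spleen. Of these 7 genes, 4 were lower in both eWAT libraries (Foxp3, Cd3e, Cd3g and Cd4) and 1 was higher. The higher one, Ctla4, an inhibitory receptor named after its values were seen, stood at 1877 and 2419 CPM in 2KR and WT eWAT, against 748 and 774 CPM in 2KR and WT spleen. Cd3e, a chain of the T cell receptor complex named likewise, stood at 573 and 672 CPM in 2KR and WT eWAT, against 1159 and 1385 CPM in 2KR and WT spleen. The part of these cells in the values of Notch2, Rbpj, Hes1 and the other genes was not tested.

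**Figure D4:**
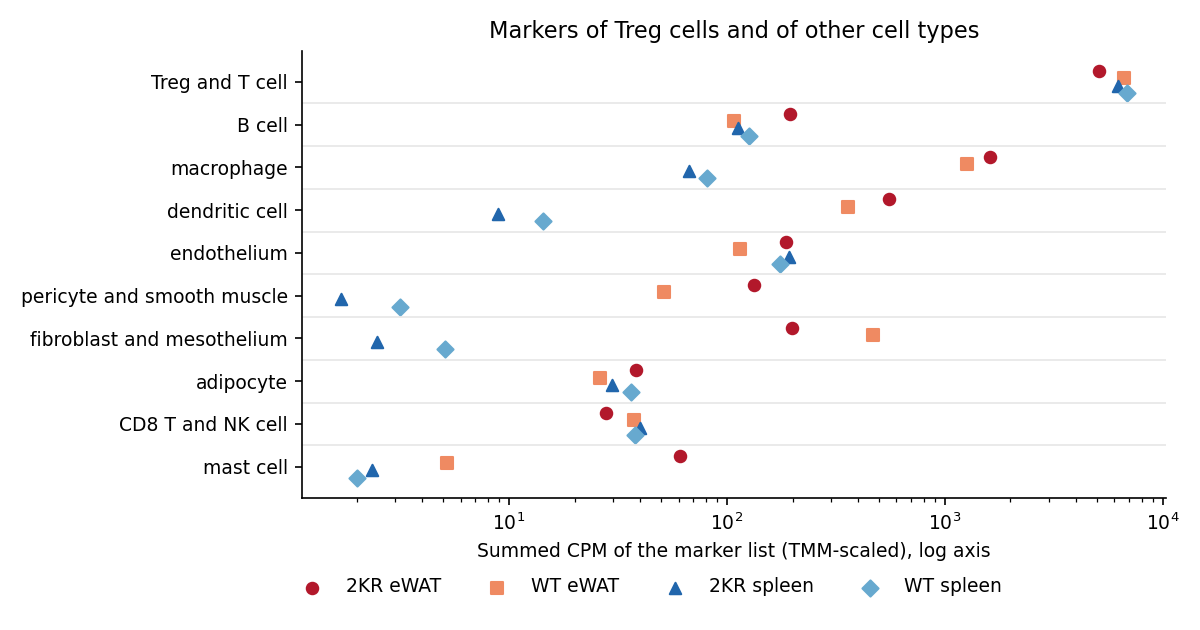
Summed CPM of each marker list on a log axis, 1 point per library, from 2KR eWAT at the top to WT spleen at the bottom within each list. Macrophage, dendritic, pericyte and fibroblast lists lie to the right in eWAT, while B cell markers lie between 108 and 195 CPM in all 4 libraries.

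For genotype, both 2KR libraries were set against both WT libraries by edgeR's quasi-likelihood test, with a term for tissue; this leaves a single degree of freedom for the spread. None of the 10 genes passed, where 0.0667% of 16488 genes did. None of the 10 had an unadjusted p under 0.05 either, 0 by edgeR and 0 by DESeq2. Log2 fold changes of 2KR over WT ran from -0.19 for Dtx4 to 0.36 for Notch3, and the lowest unadjusted p was 0.102, for Notch2 (log2 fold change 0.30, SE 0.18, adjusted p = 0.9998). Dtx1 had 0.13 (SE 0.22, adjusted p = 0.9998). In the wider list of 71 genes 0 passed by edgeR and 0 by DESeq2. There 6 had an unadjusted p under 0.05 by edgeR and 1 by DESeq2, against 4.71% of all genes by edgeR. Of these, Rnf128 had -0.65 and Nedd4 -0.67, and Psen2, Myc, Gata3 and Cblb were the others, the genes Psen2, Myc and Cblb being named after their values were seen.

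Within eWAT, the ratio of 2KR over WT stayed under 2-fold for all 10 genes in CPM, a size that 7.69% of 12307 genes reached, 5.35% upward and 2.33% downward. Notch3 was the furthest from 0, at 0.74 (95% exact interval 0.39 to 1.12), and at 1.04 in FPKM, past 2-fold. Summed markers of pericytes, B cells, macrophages, dendritic cells, endothelium, adipocytes and mast cells were also higher in 2KR eWAT than in WT eWAT. Those of fibroblasts, of Treg cells and of CD8 T and NK cells were lower. The part of such cells in the Notch3 ratio was not tested. Notch2 was at 0.28 (0.15 to 0.42), Rbpj at 0.23 (0.09 to 0.37) and Notch1 at 0.21 (0.08 to 0.34). Dtx3 was at -0.23 (-0.41 to -0.06), but 0.02 under total count scaling and 0.03 in FPKM, so its direction depends on the scaling. Dtx4 and Numb, at -0.24 and -0.18, turned likewise, to 0.0087 and 0.070 under total count scaling and to 0.027 and 0.042 in FPKM. Total count scaling moved eWAT ratios up by about 0.26. The intervals of Dtx1 (0.35, -0.32 to 1.05), Hes1, Maml1, Dtx4 and Numb included 0.

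In spleen none of the 10 reached a 2-fold ratio either, against 6.72% of 12307 genes, 1.01% upward and 5.71% downward. Notch2 was at 0.33 (0.16 to 0.50) and Notch1 at 0.24 (0.15 to 0.34), and Dtx3 was at -0.15 (-0.28 to -0.01). Dtx1, with its many reads there, was at 0.02 (-0.05 to 0.10). Notch1 and Notch2 thus had intervals above 0 in both tissues, although their common effect did not pass the test over libraries. Rbpj was at -0.14 (-0.34 to 0.06) in spleen. Notch3 (-1.65 to 1.05) and Hes1 (-0.83 to 2.40) had wide intervals, on 6 to 12 reads a library.

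**Figure D5:**
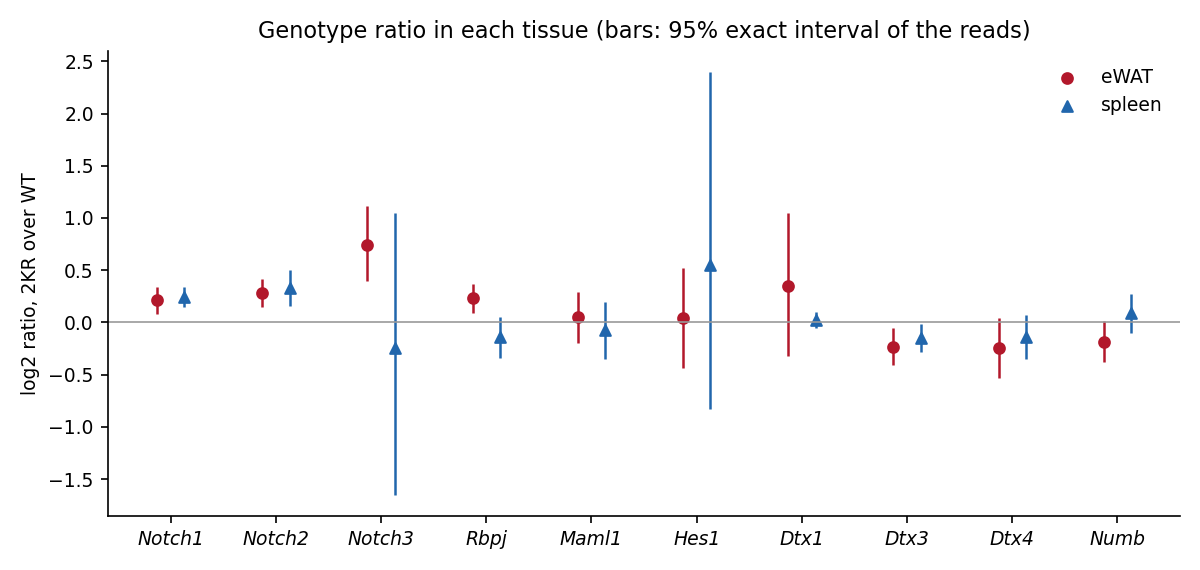
Log2 ratio of 2KR over WT for the 10 genes in eWAT (red circles) and spleen (blue triangles), with 95% exact intervals of the reads as bars. All points, which are in CPM, lie within 2-fold, Notch1 and Notch2 lie above 0 in both tissues, and the widest bars belong to Notch3 and Hes1 in spleen, with 11 reads each and with 12 and 6 reads.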

How the data were processed

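Each of the 4 libraries came with a deposited table of whole-number read counts per gene symbol, not normalized, and with the authors' tables of FPKM per gene and per transcript, from Cufflinks 2.0.2. Per the deposited readme, poly-A libraries were read at 100 bp, and TopHat 2.1.0 placed the reads on mm9 with up to 4 mismatches and 10 multiple hits; the submitters' processing notes name mm8 as well. The counting tool and strand setting were not given in the sources used here. Locus starts were counted from 0 in the files and are printed from 1.

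Counts were scaled by TMM and tested with edgeR 4.0.16 in R 4.3.3 for 16488 genes past its expression filter, with Benjamini-Hochberg adjustment at 0.05 and DESeq2 1.42.0 as an alternative. Ratios used a prior count of 2, and exact binomial intervals of 95%, on reads without it, came from scipy 1.17.1. FPKM alternatives added 0.1. The steps were run on simulated data with the same spread for every gene and few changed genes. That setting is simpler than these data, so it checks the code and not the error rates here. The 10 genes and the lists were chosen with earlier results of these data known. Named were the 10 genes; per role, up to 4 pathway genes past the threshold with the largest change among those at 5 CPM or more; Notch4, Dll1, Dll4, Jag1, Dtx2 and Dtx3l whatever their values; the single markers given; and the 5 genes most like Dtx1. Any other gene is said to be named after its values were seen. Promoter sequences came from RefSeq. The values of 1 single marker are not reported here.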

Additional observations from a re-analysis of the deposited data

How the results depend on the processing

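All 10 tissue ratios kept their sign under each of 8 alternatives, 80 values in all, and that of Dtx1 lay between -5.97 and -5.62 when 1 library was left out. None of the 10 genes overlapped between tissues, so leaving out 1 library could not turn a sign. The genes were also chosen with these tissue values known, so the kept signs are a description. The pathway list had 14 to 17 higher and 19 to 21 lower genes under other scalings, DESeq2, no filter and genotype as a term; leaving out 1 library gave 12 to 13 higher and 12 to 30 lower. Over all genes, leaving out 1 library gave 3473 to 5418 higher and 2012 to 5004 lower. Of 261 recomputed calls of 29 named pathway genes, 20 were lost, each on leaving out 1 library, and 0 were reversed. For genotype over all genes, main counts of 0 higher and 11 lower became 1 higher with DESeq2 size factors, 13 higher with total count scaling, 3 lower with the DESeq2 test, 9 higher and 42 lower with no filter, and 0 lower with no tissue term. Total count scaling shifted tissue fold changes by a median of 0.16, common genotype changes by 0.14 and eWAT genotype ratios by about 0.26. In FPKM, Notch3 passed 2-fold between genotypes in eWAT (1.04) and turned in spleen (0.19). Total count scaling turned the eWAT genotype ratios of Dtx3 to 0.0221 (0.0262 in FPKM), Dtx4 to 0.00874 (0.0265 in FPKM) and Numb to 0.0702 (0.0423 in FPKM). The same scaling turned common genotype values near 0, Numb to 0.0935 and Maml1 to 0.13. Maml1 also turned under DESeq2 size factors (0.0212), in the DESeq2 test (0.0208) and with no tissue term (0.000945). The cause was not tested. Leaving out 1 library of the genotype test was not run, as it leaves no residual degree of freedom. Genotype as a term, which pairs the tissues within a genotype, gave 15 higher and 20 lower genes of the list; the labels give no replicate numbers to pair by. Depth limits Notch3, Hes1, Heyl, Hes5, Rbpjl and Dll4, with few or 0 reads in at least 1 tissue.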
